A study of Mus musculus with 18 samples.

Results

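The Ifi200 family is a cluster of interferon-inducible genes on mouse chromosome 1, and 8 of its members are described here: Aim2, Ifi203, Ifi204, Ifi205, Ifi207, Ifi209, Mnda and Mndal. They are 8 of the 50600 genes in the count table, and all 8 passed the filter on low counts. The list was chosen by the measured log2 fold changes with LPS in both genotypes, in which Ifi203 led the difference between genotypes, so that comparison and its parts are given as descriptions without a p-value. Most proteins of this family combine a pyrin domain, which binds other proteins, with HIN domains, which bind DNA. AIM2 senses double-stranded DNA in the cytosol and assembles an inflammasome with the adaptor ASC and caspase-1. The protein of Ifi204 is the mouse counterpart most often compared with human IFI16, a DNA sensor that signals through STING. Several genes of the family are induced by type I interferon, which macrophages secrete after LPS, the bacterial ligand of TLR4.

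Bone marrow from WT or IRF5 KO mice was grown into macrophages (BMDMs) with GM-CSF over 8 days. Cells then received DMSO or 3.5 μM defactinib, an inhibitor of the kinases PYK2 and FAK, for 1 h before LPS at 100 ng/ml for 2 h. Each genotype had 3 groups of 3 libraries, namely cells without LPS (unstimulated), with DMSO and LPS (LPS DMSO) and with defactinib and LPS (LPS defactinib). IRF5, the transcription factor targeted in the KO, is activated downstream of TLR4. The labels give DMSO for the unstimulated libraries whereas their column names carry a mark for untreated cells. The methods describe male C57BL/6J mice and do not describe the KO line, and which animal a library came from is not stated, so the p-values measure the spread between libraries. Wherever bulk RNA is compared, fewer expressing cells and less RNA per cell cannot be told apart.

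Between 39282181 and 61949143 read pairs were counted per library. The macrophage genes Lyz2, Csf1r and Adgre1 were detected in every library, at no less than 7705, 557 and 70.3 CPM (read pairs scaled to a common library size with TMM factors). Of the dendritic cell genes, Itgax was at no less than 1809 CPM, whereas Flt3 did not exceed 2.72 CPM. Zbtb46, Ccr7 and Dpp4 did not exceed 97.2, 368 and 58.8 CPM. Over the libraries Ccl22 was at 2497 to 14085 CPM and Ccl17 at 1752 to 5434 CPM. The level summed over 10 dendritic cell markers was therefore mostly that of Ccl22, Ccl17 and Itgax. This summed level was 20611 to 22348 CPM in WT LPS DMSO against 11958 to 12178 CPM in IRF5 KO LPS DMSO. With defactinib the summed level was 16327 to 19651 CPM in WT LPS defactinib against 9825 to 9968 CPM in IRF5 KO LPS defactinib. That of 7 mast cell and basophil markers, most of it Kit and Gata2, was 7.89 to 15.5 CPM in WT and 42.7 to 72.4 CPM in IRF5 KO libraries, with Fcer1a at 0 to 0.0485 CPM. The sum of 7 macrophage markers was 10667 to 15062 CPM in WT LPS defactinib against 17817 to 18772 CPM in IRF5 KO LPS defactinib, and no less than 9368 CPM in any library. The sum of 9 lymphoid markers was 3.97 to 5.59 CPM in WT LPS DMSO and at most 1.45 CPM in the other groups, so that it was highest in the same group as the family. The sum of 8 neutrophil markers was 39.5 to 54.2 CPM in unstimulated libraries and 72.7 to 156 CPM in those with LPS. The part of these markers in the results below was not tested. The targeted gene was still counted in the KO: Irf5 was at 587 to 650 CPM in WT unstimulated and at 335 to 397 CPM in IRF5 KO unstimulated libraries. After LPS with DMSO it was at 434 to 475 CPM in WT and 345 to 435 CPM in IRF5 KO (log2 fold change 0.16), and with defactinib at 213 to 379 CPM in WT and 353 to 392 CPM in IRF5 KO (-0.42), so that the libraries of the genotypes overlapped in both. Its counts therefore do not check the genotype labels of the libraries with LPS, and counts over the whole gene do not show whether a functional transcript remained.

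In 2 groups a library stood apart from the others. IRF5 KO LPS DMSO replicate 3 had a Pearson r of 0.932 with replicates 1 and 2 over the log2 CPM of the 15663 tested genes, whereas these had an r of 0.992 with each other. Replicates 1 and 2 were at 0.985 to 0.987 with the IRF5 KO LPS defactinib libraries, and replicate 3 was at 0.941 to 0.943 with them and at 0.978 to 0.979 with IRF5 KO unstimulated. With WT LPS DMSO, replicate 3 was at 0.954 to 0.957 and replicates 1 and 2 at 0.895 to 0.90. The libraries labelled IRF5 KO LPS DMSO thus fell into 2 kinds, and whether each label is right was not settled, so every value below that rests on this group holds for the libraries as labelled. WT LPS defactinib replicate 3 was at 0.971 and 0.977 with the other replicates of its group, which were at 0.985. Both replicates 3 held more RNA of most family members than their groups. In WT LPS defactinib, replicate 3 over the mean of replicates 1 and 2 was 27.5 for Ifi205, 7.68 for Ifi209, 7.52 for Ifi204, 6.76 for Mnda, 5.32 for Ifi203, 2.68 for Mndal and 2.63 for Ifi207, but 1.00 for Aim2. In IRF5 KO LPS DMSO the same ratio was 1.97 to 13.2 for these 7 genes and 0.712 for Aim2. Most results of the members that rest on either group are therefore given with and without these libraries. For other genes this was done only where stated.

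All 8 genes lie within 680932 bases of chromosome 1 (mm10). Aim2 (173350879 to 173466040) and Ifi209 (173630917 to 173647928) are on the plus strand. On the minus strand follow Ifi207 (173723430 to 173741809), Ifi204 (173747293 to 173766943), Mndal (173857220 to 173942491), Mnda (173896345 to 173913046), Ifi203 (173920407 to 173942672) and Ifi205 (174011998 to 174031810). Mnda is the gene that the annotation names Ifi211, matched through a RefSeq synonym. The model of Mndal spans Mnda and overlaps with Ifi203, and shares 37 exonic bases with Ifi203. Of the 150-base stretches in their transcripts, 46.4% in Mnda, 12.6% in Ifi205, 9.28% in Ifi209 and 6.77% in Ifi204 also occur in another gene of the cluster, and for the other 4 members this was at most 1.61%. Because only uniquely mapped pairs were counted, this sharing limits the values of Mnda most of the 8 genes.

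The promoter sequences were read for a motif of interferon-stimulated genes, the core of the interferon-stimulated response element, through which type I interferon induces many genes. The letters searched were GAAANNGAAA on either strand (on the other strand TTTCNNTTTC), over 250 bases before and 50 after each RefSeq start (GRCm38.p6, the same assembly as mm10). Over all genes, 936 of 27025 (3.46%) had a promoter with a match before the start. Sequences were found for 7 members, all but Ifi204, with 9 starts in all. A match before the start was found in 5 of these 7, Ifi203, Ifi205, Ifi207, Mnda and Mndal, and no match in Aim2 and Ifi209. The 50 bases around the first match in each are shown because they let the members be compared with each other. They are printed on the gene's own strand, 5′ to 3′, with the matched letters in capitals:
Ifi203: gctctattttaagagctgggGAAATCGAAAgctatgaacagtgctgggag
Mndal: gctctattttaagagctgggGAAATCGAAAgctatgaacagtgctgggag
Ifi207: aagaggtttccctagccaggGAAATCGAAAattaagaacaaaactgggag
Mnda: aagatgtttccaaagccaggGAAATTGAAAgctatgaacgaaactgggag
Ifi205: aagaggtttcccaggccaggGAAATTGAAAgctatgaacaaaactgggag

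These stretches lie on the minus strand at chr1:173942498-173942547 (Ifi203), chr1:173880194-173880243 (Mndal), chr1:173741821-173741870 (Ifi207), chr1:173913054-173913103 (Mnda) and chr1:174031860-174031909 (Ifi205). The 50 bases were identical between Ifi203 and Mndal, with 0 differences, and Mnda and Ifi205 differed at 4 positions. Ifi207 differed from Ifi205 at 6 and from Ifi203 at 18. The match began 35 to 41 bases before the start in Ifi203, Mndal, Mnda and Ifi207, and 134 bases before it in Ifi205. A second start of Mndal had a match on the other strand, and a second start of Ifi203 had none. In 4 of the 5 members the match thus lay at a like distance from the start, as the map of the promoters shows. A match describes these letters and does not show binding, and its absence in a window says nothing of a factor.

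**Figure D1:**
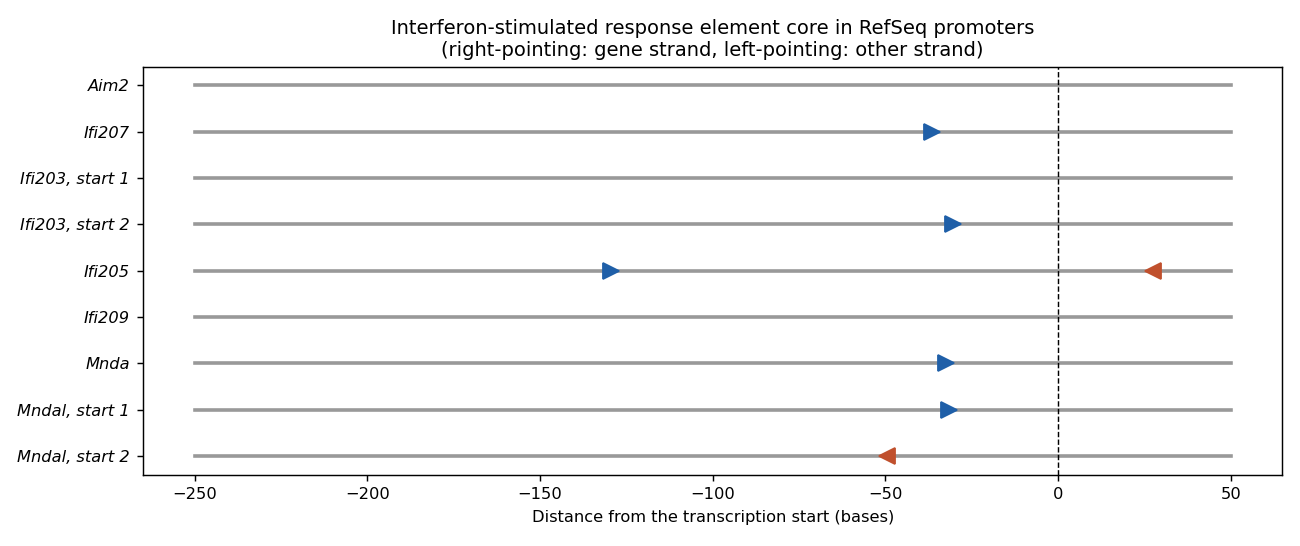
Position of the response element core in the RefSeq promoters of 7 members, in bases from the transcription start (dashed line at 0). Each grey line is 1 promoter from 250 bases before to 50 bases after the start, and arrowheads mark matches on the gene's strand (right-pointing) or the other strand (left-pointing). In Ifi207, Mnda, 1 start of Ifi203 and 1 of Mndal the match on the gene's strand begins 35 to 41 bases before the start.

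Before LPS, Ifi207 had the highest level per length in both genotypes, at 31.2 ± 2.89 RPKM (SD, n = 3) in WT and 25.7 ± 0.650 RPKM (SD, n = 3) in IRF5 KO, where RPKM are the CPM divided by the exonic length in kilobases. Aim2 followed at 14.9 ± 0.965 and 14.4 ± 0.780 RPKM, and in IRF5 KO its libraries overlapped with those of Mndal at 11.9 ± 3.39 RPKM. In WT, Ifi209, Mndal and Ifi204 came next at 10.5, 9.99 and 9.36 RPKM, and the libraries of neighbours in this order overlapped from Ifi209 to Mnda (7.62 RPKM). Ifi203 was at 2.76 ± 0.169 RPKM and Ifi205 lowest at 0.483 ± 0.0455 RPKM, both separate from the member above. In IRF5 KO Ifi203 was at 3.76 ± 0.800 and Ifi205 at 0.448 ± 0.147 RPKM, again the lowest of the 8.

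After LPS with DMSO the order in WT was another. Ifi209 was highest at 227 ± 34.6 RPKM, and its libraries overlapped with those of Ifi207 at 196 ± 10.2 RPKM. Mndal, Mnda and Ifi204 were at 161, 144 and 117 RPKM, each overlapping with its neighbour. Ifi203, Aim2 and Ifi205 were at 54.4, 47.7 and 37.1 RPKM and overlapped with the next in order. As a ratio, the range from the lowest to the highest member was narrower than in resting cells, as the plot of levels per length shows. In WT LPS defactinib and IRF5 KO LPS DMSO all neighbours in the order overlapped. In IRF5 KO LPS defactinib, where the 3 libraries were close together, the order was Ifi207 (38.4 ± 1.35 RPKM), Aim2 (28.2 ± 1.21 RPKM), Mndal (16.5 ± 0.546 RPKM), Mnda (13.6 ± 0.610 RPKM), Ifi204 (6.63 ± 0.156 RPKM), Ifi209 (6.37 ± 0.0536 RPKM), Ifi203 (2.39 ± 0.134 RPKM) and Ifi205 (1.2 ± 0.133 RPKM), and no neighbours overlapped.

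**Figure D2:**
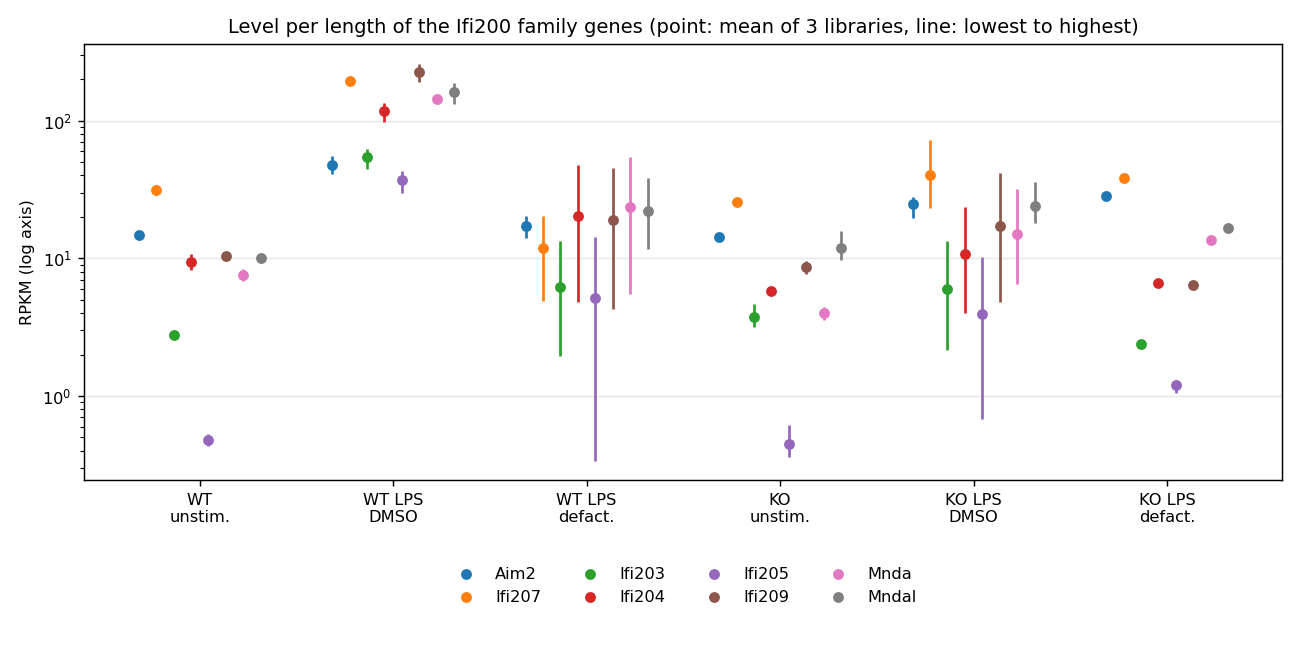
Level per length (RPKM, log axis) of the 8 members in the 6 groups. Points are means of 3 libraries and lines run from the lowest to the highest library. All members are highest in WT LPS DMSO, where Ifi209 (227 RPKM) and Ifi207 (196 RPKM) lead, and the lines are long in WT LPS defactinib and IRF5 KO LPS DMSO, where replicate 3 stands apart.

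The comparison that chose the family asks whether the response to LPS depends on IRF5. In WT cells Ifi203 was at 17.5, 18.2 and 19.8 CPM unstimulated and at 380, 417 and 298 CPM after LPS with DMSO. In IRF5 KO cells it was at 21.4, 31.4 and 22.9 CPM unstimulated and at 15.9, 14.4 and 89.7 CPM after LPS with DMSO. All WT LPS libraries were above every KO library, and in the KO only replicate 3 was above the unstimulated range. The log2 fold change with LPS was 4.30 (SE 0.743) in WT and 0.67 (SE 0.655) in IRF5 KO, a difference of 3.63 (SE 0.949). Without IRF5 KO LPS DMSO replicate 3 the value in IRF5 KO turned to -0.74 and the difference was 5.04, and without replicates 1 and 2 it was 2.45.

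For the other members, the log2 fold change with LPS in WT ran from 1.68 in Aim2 and 2.65 in Ifi207 over 3.64 to 4.44 in Ifi204, Mndal, Mnda and Ifi209 to 6.26 in Ifi205. Ifi205 was at 1.83 to 2.21 CPM in WT unstimulated and at 125 to 179 CPM in WT LPS DMSO libraries, a ratio of means of 76.9. In Aim2 the same ratio was 3.21. A gene was called where its adjusted p was under 0.05 and its log2 fold change over 1 in size. As a description of the libraries that chose the list, 8 of 8 members were past this threshold with LPS in WT, where 11.6% of all tested genes were called higher, and 3 in IRF5 KO (Ifi205, Mnda and Mndal), where 7.07% were. Without IRF5 KO LPS DMSO replicate 3 the KO count was 0, with Ifi205, Mnda and Mndal at 0.81, 0.72 and 0.60. Without replicates 1 and 2 it was also 0, but their values were larger, at 4.54, 3.01 and 1.6, with 1 library left in that group. After LPS with DMSO all 8 members were higher in every WT library than in any IRF5 KO library. Of these, 7 were past the threshold, with 14% of genes called in that direction, and Aim2, at 0.93 on the log2 scale, missed only the fold threshold of 1. Without IRF5 KO LPS DMSO replicates 1 and 2, which left 1 library in that group, the values ran from 1.26 in Aim2 to 2.42 in Ifi209. The dependence of the LPS response on genotype was called for Ifi203, Ifi207, Ifi209 and Mndal, with 6.33% of genes called higher. Without IRF5 KO LPS DMSO replicate 3 its values ran from 0.74 in Aim2 to 5.46 in Ifi205. Without replicates 1 and 2 they ran from 1.12 in Ifi207 to 2.45 in Ifi203. The number of members called changed between fits, and the share of all genes was not computed for these fits. Before LPS edgeR called no member different between genotypes, where 7.31% of genes were called in either direction. None had an unadjusted p below 0.05, and DESeq2 and limma-voom called none. Even so, 4 members were higher in every WT unstimulated library than in any IRF5 KO one, 1 was lower and 3 overlapped. The ratio of means was 1.91 in Mnda, 1.62 in Ifi204 and 0.733 in Ifi203. Mnda was at 0.93 on the log2 scale (SE 0.678). Without replicate 3 of both WT LPS defactinib and IRF5 KO LPS DMSO it was at 0.93 (SE 0.167), Ifi204 at 0.69 and Ifi203 at -0.45. These 3 values were under the fold threshold. These counts rest on the libraries that chose the list and are given as description.

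**Figure D3:**
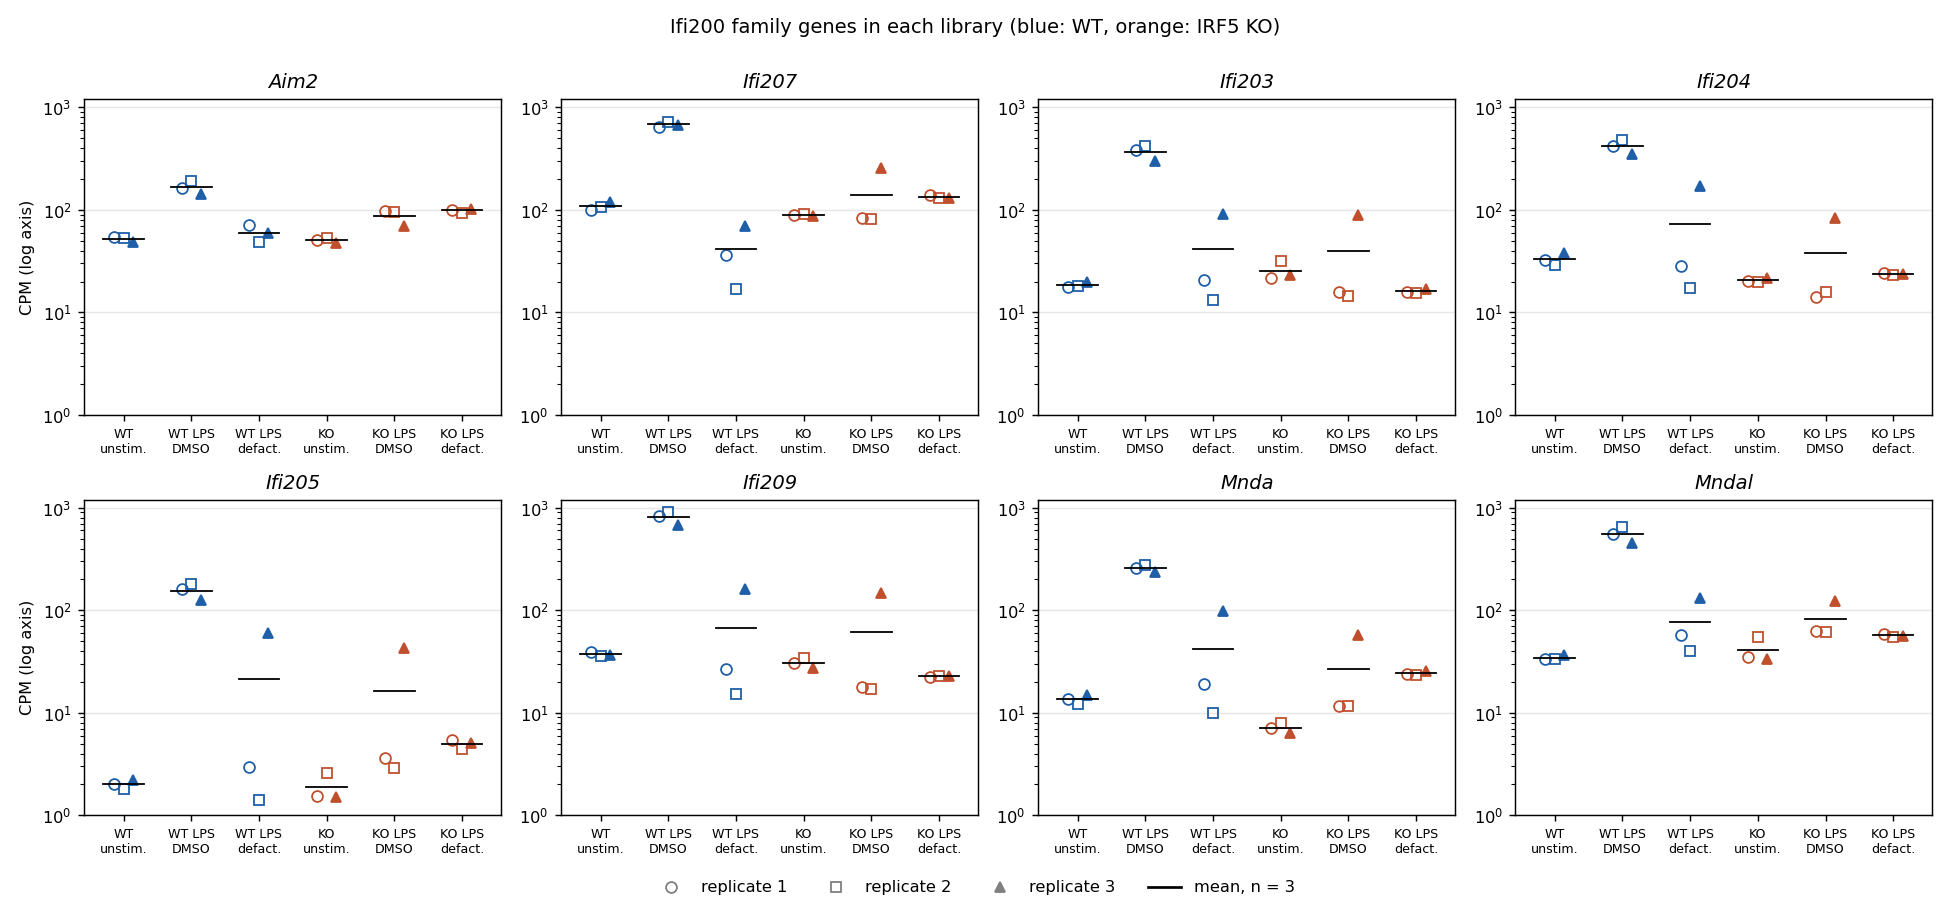
CPM (log axis) of the 8 members in each of the 18 libraries, in blue for WT and orange for IRF5 KO. Symbols mark replicates 1 to 3 and the black line is the mean of the 3 libraries. Every member is highest in WT LPS DMSO, Ifi207 in WT LPS defactinib (17 to 70.4 CPM) lies under its unstimulated level, and the filled triangles of replicate 3 stand above the others in WT LPS defactinib and IRF5 KO LPS DMSO in all members but Aim2.

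Defactinib lowered all 8 members in LPS-stimulated WT cells. This comparison shares the WT LPS DMSO libraries with the one that chose the list, and took in the WT LPS defactinib libraries, which had no part in the choice. Since the high level in WT LPS DMSO helped to choose the members, a lower level elsewhere is not independent of that choice, and the values are given without a p-value. For Ifi203 the defactinib libraries were at 20.8, 13.2 and 90.4 CPM, against 380, 417 and 298 CPM with DMSO, and the groups did not overlap. Its log2 fold change was -3.14 (SE 0.703), and -4.41 without WT LPS defactinib replicate 3. Ifi205 was at 2.95, 1.42 and 60.0 CPM with defactinib, a log2 fold change of -2.86 (SE 1.11) and of -6.13 without replicate 3. Of the members, Ifi205 differed most between the fits with and without that library. All 8 were called lower, while 18.6% of tested genes were called lower, and in each the 3 DMSO libraries lay above the 3 defactinib libraries. The median log2 fold change was -2.86 over the members and 0.09 over all tested genes. In a fit of only these 2 groups 5 members were called. The share of all genes called in that fit was not computed, so the counts are not compared.

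Among the other members, Ifi207 was at 646, 717 and 679 CPM with DMSO and at 36.6, 17 and 70.4 CPM with defactinib, a log2 fold change of -4.04 (SE 0.478) and of -4.66 without replicate 3. Ifi209 was at 825, 918 and 674 CPM with DMSO and at 26.6, 15.3 and 161 CPM with defactinib, a log2 fold change of -3.58 (SE 0.852) and of -5.26 without replicate 3. These 2 members had led the levels in WT LPS DMSO. Aim2 had the smallest value at -1.48 (SE 0.15), from 165, 193 and 143 CPM with DMSO to 70.6, 49.0 and 59.9 CPM with defactinib. Its libraries with defactinib overlapped with the 48.3 to 54.9 CPM of WT unstimulated cells. Mndal was at 557, 651 and 452 CPM with DMSO and at 57.5, 40.3 and 131 CPM with defactinib (-2.86, SE 0.377). Mnda was at 257, 276 and 236 CPM with DMSO and at 19, 9.86 and 97.7 CPM with defactinib (-2.60, SE 0.696). Ifi204 was at 423, 478 and 349 CPM with DMSO and at 28.3, 17.2 and 171 CPM with defactinib (-2.53, SE 0.736). Replicate 3 held the most RNA of the defactinib libraries in all of these but Aim2, and still less than any DMSO library. Without it the log2 fold changes of Mndal, Mnda and Ifi204 were -3.49, -4.14 and -4.18. The differences between members were not tested.

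After LPS with defactinib, Ifi207 lay under its resting level in WT. The unstimulated libraries took part in the choice of the list, so the values against them are a description without a p-value. In WT LPS defactinib it was at 36.6, 17 and 70.4 CPM, and in WT unstimulated at 99.9, 106 and 120 CPM. All 3 libraries with defactinib were below all unstimulated ones, a log2 fold change of -1.39 (SE 0.432), and -2.02 without WT LPS defactinib replicate 3. It was the only member past the threshold and lower against unstimulated WT cells, where 15.8% of tested genes were called lower. Ifi205 (3.41, SE 1.18) and Mndal (1.15, SE 0.358) were past it and higher, against 9.1% of genes. The Ifi205 libraries overlapped with unstimulated ones, and its value was 0.13 without replicate 3, no longer past it. Mndal was at 57.5, 40.3 and 131 CPM against 33.1 to 36.9 CPM and did not overlap, but without replicate 3 its value was 0.52 and under the threshold. The other 5 members were at 0.20 to 1.63 and not past it with all libraries. Mnda, at 1.63, was past it at 1.63 to 1.67 with DESeq2, with a filter at 5 CPM, when any single library of IRF5 KO LPS DMSO was left out and when replicates 1 and 2 of that group were both left out, and at 2.00 and 2.11 when WT LPS defactinib lacked replicate 1 or 2. Without WT LPS defactinib replicate 3 the 5 were at -0.82 to 0.21.

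The comparison of the genotypes under LPS with defactinib is independent of the choice of the list, because neither group took part in it. Here Ifi207 was lower in WT, at 36.6, 17 and 70.4 CPM, than in IRF5 KO, at 139, 131 and 131 CPM, and no libraries overlapped. The log2 fold change was -1.70 (SE 0.435, adjusted p = 0.00684), and -2.31 (SE 0.434, adjusted p = 0.000973) without WT LPS defactinib replicate 3. Aim2 was also lower in WT in all libraries, at 70.6, 49.0 and 59.9 CPM against 99.8, 94.1 and 102 CPM, with a log2 fold change of -0.72 (SE 0.148, adjusted p = 0.00123) that did not reach the threshold of 1. Without replicate 3 it was -0.71. Before LPS, Ifi207 had instead been higher in all WT libraries, at 99.9 to 120 against 87.9 to 92.0 CPM (log2 fold change 0.28), and Aim2 had overlapped, at 48.3 to 54.9 against 47.4 to 52.8 CPM.

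The other 6 members had positive values in this comparison, from 0.42 in Mndal to 2.10 in Ifi205, none of which passed the test (adjusted p = 0.0930 to 0.375). These values rested on 1 library. Ifi205 was at 2.95, 1.42 and 60.0 CPM in WT and at 5.49, 4.39 and 5.10 CPM in IRF5 KO. Without WT LPS defactinib replicate 3 it was at -1.18, Mnda at -0.74, Mndal at -0.20, Ifi209 at -0.10, Ifi204 at -0.04 and Ifi203 at 0.09. With replicate 3 of both WT LPS defactinib and IRF5 KO LPS DMSO left out, Ifi205 was called lower, at -1.19 (adjusted p = 0.00190). Thus, with all libraries, 1 of 8 members was called lower and 0 higher, whereas 8.87% of tested genes were called lower and 17.3% in either direction. The count of members is therefore close to the background share. Ifi204 was called higher, at 2.02 (adjusted p = 0.0472), without WT LPS defactinib replicate 1, and at 2.09 (adjusted p = 0.0291) together with Ifi203 at 1.81 (adjusted p = 0.0482) without replicate 2. Ifi207 was called in every fit that left out 1 library, but not with the fold threshold inside the test. The plot of fold changes shows both comparisons with and without WT LPS defactinib replicate 3.

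**Figure D4:**
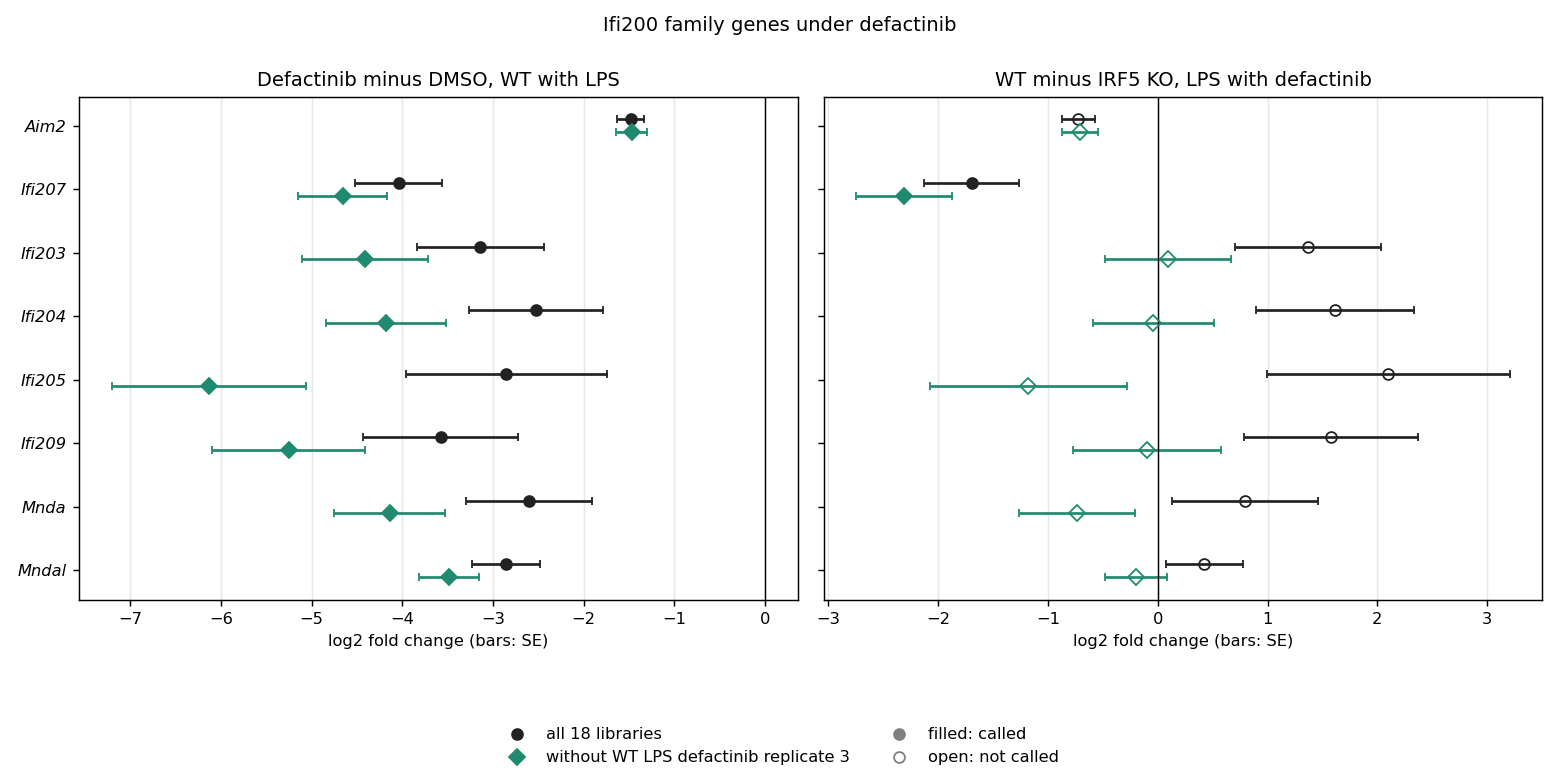
Log2 fold changes of the 8 members for defactinib against DMSO in LPS-stimulated WT (left) and for WT against IRF5 KO under LPS with defactinib (right), with bars of 1 standard error. Circles use all 18 libraries and diamonds leave out WT LPS defactinib replicate 3, and filled symbols are past the threshold. The left comparison holds the WT LPS DMSO libraries, which helped to choose the list, and is a description. All values on the left are negative, and on the right Ifi207 (-1.70 and -2.31) is the member called in both fits.

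The IRF5 KO LPS DMSO and IRF5 KO unstimulated libraries took part in the choice of the list, so comparisons with them are given as a description. In LPS-stimulated IRF5 KO cells edgeR called none of the 8 members changed by defactinib, and none had an unadjusted p below 0.05. DESeq2 and limma-voom also called 0, and 0.919% of all tested genes were called in either direction. Values ran from -1.73 (SE 1.09) in Ifi205 to 0.17 (SE 0.147) in Aim2. Ifi203 was at 15.9, 14.4 and 89.7 CPM with DMSO and at 15.7, 15.4 and 17.1 CPM with defactinib, so that replicate 3 alone was above the defactinib range. Its log2 fold change was -1.32 (SE 0.666), 0.08 without replicate 3 and -2.50 without replicates 1 and 2, when a single DMSO library was left and was assumed to vary like the other groups. In that fit Ifi203 and Ifi209, at -2.74, were past the threshold, while 14.6% of all genes were called lower, so that 2 of 8 members stood against a far higher background. The 2 settings thus differed in what they called. Against unstimulated KO cells, Mnda was past the threshold and higher after LPS with defactinib, at 23.7, 23.6 and 25.6 CPM against 7.09, 7.87 and 6.39 CPM (log2 fold change 1.77, SE 0.688), where 7.85% of genes were called higher. The groups did not overlap, but the call was lost without replicate 1 or 3 of either KO group or of WT LPS DMSO, or without any WT unstimulated library, although the log2 fold change stayed at 1.70 to 1.85 when each library was left out. Aim2 was at 99.8, 94.1 and 102 CPM after LPS with defactinib and at 51.0, 52.8 and 47.4 CPM in unstimulated KO cells, a log2 fold change of 0.97 (SE 0.148) just under the fold threshold.

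The effect of defactinib in WT minus that in IRF5 KO is given as a description, since it equals the genotype difference under defactinib minus the one under DMSO, and the DMSO libraries chose the list. It was -3.99 (SE 0.620) on the log2 scale in Ifi207, -2.32 (SE 0.505) in Mndal and -1.65 (SE 0.209) in Aim2, the 3 members past the threshold, where 12.3% of tested genes were called lower. Only the first of the 2 terms is independent of the choice. It was -1.70 in Ifi207, -0.72 in Aim2 and 0.42 in Mndal, or -0.20 in Mndal without WT LPS defactinib replicate 3. The 3 members were picked by the whole, which holds this term, so its sign in them is partly set by that pick. In the other 5 members it was 0.80 to 2.10. The DMSO term, at 2.29 in Ifi207, 2.75 in Mndal and 0.93 in Aim2, was the larger in each of the 3. The other 5 members were at -1.13 in Ifi205 to -2.46 in Mnda. Without IRF5 KO LPS DMSO replicate 3, 7 members were past the threshold, all but Ifi205, with 18.8% of genes called lower. Without WT LPS defactinib replicate 3 all 8 were, with 13.3% of genes. Without IRF5 KO LPS DMSO replicates 1 and 2 Ifi207 at -3.09 and Aim2 at -1.97 were, with 9.22% of genes.

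**Figure D5:**
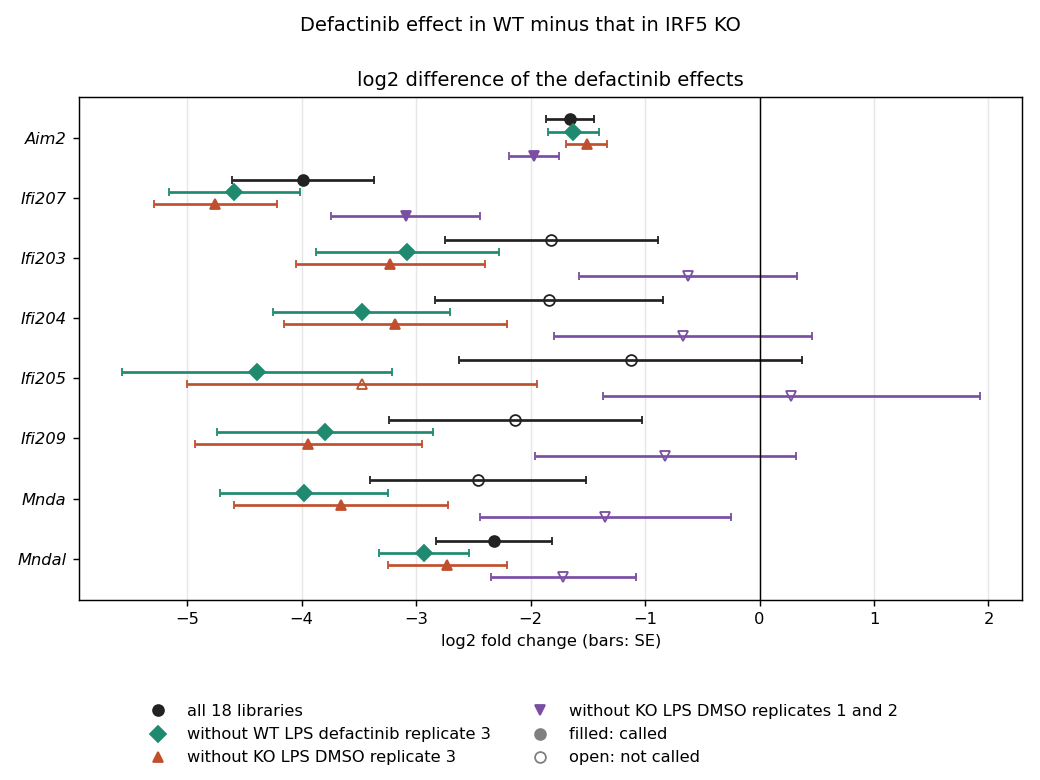
Difference of the defactinib effect between genotypes (WT minus IRF5 KO, log2, bars of 1 standard error) for the 8 members, in the fit of all 18 libraries and in 3 fits that leave out libraries that stood apart. Filled symbols are past the threshold. Ifi207 and Aim2 are past it in all 4 fits, and the values of Ifi205 run from -4.39 to 0.28.

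The likeness of other genes to Ifi203 was measured as Pearson's r of log2 CPM over the 18 libraries, among the 8452 better expressed genes outside the list. The highest were Helz2 (0.986), Mx1 (0.981), Pcgf5 (0.980), Ifit3 (0.979) and Usp18 (0.974). Mx1, Ifit3 and Usp18 are known interferon-stimulated genes. Those most like Aim2 were Rab9 (0.975), Wdr37 (0.970), Map3k8 (0.970), Nxf1 (0.969) and Fbxw11 (0.963). These correlations describe the same 18 libraries across groups, so differences between groups enter them, and correlations within groups were not measured. Among the members, the highest value was 0.990 between Ifi203 and Ifi209. Ifi207 lay at 0.780 to 0.829 with the members other than Aim2, and Aim2 at 0.618 to 0.827 with the rest of the family.

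The other genes of the cluster that were matched, Ifi202b, Ifi206, Ifi208, Ifi213, Ifi214 and the pseudogene Ifi203-ps, were at most at 3.46 CPM in the unstimulated libraries. In WT LPS defactinib replicate 3 Ifi213 reached 23.1 CPM, and Ifi202b stayed at 0.483 to 0.614 CPM in WT LPS DMSO. Ifi202b and Ifi203-ps passed the filter on low counts only through WT LPS DMSO, the group where they were high, so they are left out of the calls against it. Ifi206 was at 3.09, 3.20 and 3.46 CPM in WT unstimulated and at 198, 206 and 163 CPM in WT LPS DMSO. With defactinib it was at 1.51, 0.698 and 37.6 CPM in WT, where replicate 3 again stood apart. Of the other 4, 3 were called lower with defactinib in LPS-stimulated WT, Ifi214 at -4.41, Ifi208 at -4.45 and Ifi206 at -3.84. Without replicate 3 all 4 were. Of all tested genes, 18.6% and, without replicate 3, 19.4% were called lower. The WT LPS DMSO libraries, which helped to choose the family, are part of this comparison, so these values are a description. Under defactinib 4 were called higher in WT than in IRF5 KO, Ifi213 at 5.19 (adjusted p = 0.0128), Ifi206 at 3.77 (adjusted p = 0.0333), Ifi208 at 3.67 (adjusted p = 0.0488) and Ifi214 at 3.20 (adjusted p = 0.0100). Without WT LPS defactinib replicate 3 none of these 4 calls held, while the share of all tested genes called higher was 8.45% with and 7.35% without it. They had values of 1.25, 0.21, 0.70 and 2.11.

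Genes that act with the family in DNA sensing were measured in the same fit. Of the 29 tested genes on a list for cytosolic DNA sensing and the AIM2 inflammasome, 8 were called lower and 2 higher with defactinib in LPS-stimulated WT, where 18.6% of all tested genes were called lower and 10.4% higher. The median log2 fold change of the list was -0.15. Tlr9, the endosomal DNA receptor, was at -4.31 (adjusted p = 0.000816) and Cgas, which makes the second messenger that activates STING, at -3.32 (adjusted p = 5.19e-07). Prkdc (1.15, adjusted p = 4.99e-05) and Xrcc6 (1.01, adjusted p = 2.39e-05), which code for parts of the DNA-dependent protein kinase, were higher. Of the genes that act with AIM2, Pycard, Casp1 and Gsdmd stayed under the fold threshold. Il1b, Il18 and Casp4, also on the list, are not given for this comparison. Pycard, which codes for ASC, was at 0.48 (adjusted p = 0.00373), Casp1 at -0.41 (adjusted p = 0.0407) and Gsdmd, the pore-forming effector, at -0.20 (adjusted p = 0.149). Tmem173, which codes for STING, was at 0.51 (adjusted p = 0.000375) and Zbp1, a sensor of Z-form nucleic acid, at -0.15, but Zbp1 was called lower at -1.47 without WT LPS defactinib replicate 3.

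For WT against IRF5 KO under LPS with defactinib, 5 of the 29 were called lower and 3 higher, against 8.87% and 8.45% of all tested genes. The median of the list was -0.05. Nlrp3, another inflammasome sensor, was at -3.07 (adjusted p = 6.13e-09), Il1b, an inflammasome substrate, at -2.17 (adjusted p = 0.0210) and Cgas at -1.02 (adjusted p = 0.0116). Enpp1, which degrades the messenger made by cGAS, was at 5.10 (adjusted p = 5.73e-09), and Zbp1 at 2.05 (adjusted p = 0.00538). Enpp1 was at 6.61 to 7.28 CPM in WT unstimulated and at 0.423 to 0.551 CPM in IRF5 KO unstimulated libraries, so that its libraries were apart before LPS. Zbp1 was at 0.73 and not called without WT LPS defactinib replicate 3. In this comparison Ifi207 and Aim2 had the same sign as Nlrp3, Il1b and Cgas, and the other members that of Enpp1 and Zbp1. A relation between them was not tested.

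A list of 11 genes for type I interferon and its signalling was measured as well. Whether these act on the members here was not tested. Ifnb1, which codes for interferon-β, was at 54.5 to 81.9 CPM in WT LPS DMSO, 6.42 to 37.7 CPM in WT LPS defactinib, 18.6 to 32.8 CPM in IRF5 KO LPS DMSO and 15.6 to 18 CPM in IRF5 KO LPS defactinib, and did not exceed 0.0169 CPM without LPS. With defactinib in LPS-stimulated WT its log2 fold change was -1.64 (adjusted p = 0.00415). Stat2 (-2.01, adjusted p = 0.00174) and Irf9 (-2.68, adjusted p = 0.00217) were called lower as well, 6 of 11 genes on this list in all, against 18.6% of all tested genes. These calls rest on all libraries and are not given here without WT LPS defactinib replicate 3. Irf7 was at 0.42, with 10.7 CPM in the lowest and 885 CPM in the highest WT LPS defactinib library, and at -4.04 without WT LPS defactinib replicate 3. That library therefore held more Irf7 RNA than any WT LPS DMSO library (174 to 268 CPM), along with its higher levels of Ifi205, Ifi204 and Ifi209.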

How the data were processed

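RNA-seq libraries of 18 BMDM cultures in 6 groups were used. The authors deposited raw counts per Ensembl gene, taking uniquely mapped read pairs, from STAR on mm10 and featureCounts 1.6.3 (reverse stranded, summed over exons). Of 50600 gene IDs, 50376 had a GENCODE symbol. CPM were computed here with TMM scaling, and RPKM from the deposited gene lengths. The test was edgeR 4.0.16 (R 4.3.3): filterByExpr, a robust quasi-likelihood F test on 1 mean per group over all 18 libraries, two-sided. P-values were adjusted by Benjamini-Hochberg over 15663 genes. The standard error is the log2 fold change divided by the square root of F. The fit was also run on simulated counts with the same spread for all genes and no library that stood apart. Calls there used no fold threshold, so this setting is unlike the data. Members, gene lists and tests were chosen with earlier results of these data known. Named besides the members were the other cluster genes, the 2 largest rises and falls of the DNA sensing list per comparison, a set of its core genes, a set of interferon genes, 1 of which is not reported here, and 5 genes most like Ifi203 and Aim2. Alternatives were other scalings, filters, DESeq2 1.42.0, limma-voom (3.58.1), a replicate block, fits of only the compared groups, other thresholds and leaving out libraries. Promoters came from RefSeq.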

Additional observations from a re-analysis of the deposited data

Results flagged for a closer look

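For 3 members the effect of defactinib after LPS differed between WT and IRF5 KO past the threshold of an interaction term. All were lower, where 12.3% of tested genes were called lower. The term holds the DMSO libraries that chose the list and is no independent test. The difference was -3.99 on the log2 scale in Ifi207, -2.32 in Mndal and -1.65 in Aim2. Its component independent of the choice of the list was WT against IRF5 KO under defactinib. This component was -1.70 in Ifi207, 0.42 in Mndal (-0.20 without WT LPS defactinib replicate 3) and -0.72 in Aim2. The whole difference picked these 3 members and holds this component, so its sign in them is partly set by that pick. The DMSO term, at 2.29, 2.75 and 0.93, was the larger in each of the 3. In Ifi207 the 3 WT libraries with defactinib were all below the 3 with DMSO, while in IRF5 KO the 3 libraries with defactinib lay between the lowest and the highest with DMSO. The levels of IRF5 KO LPS DMSO replicate 3 moved with these values: Ifi207 was at 254 CPM there and at 82.5 and 81.3 CPM in replicates 1 and 2, Mndal at 123 CPM against 62.4 and 62.1 CPM, and Aim2 at 69.0 CPM against 97.7 and 96.1 CPM. The part of that library was not tested beyond leaving it out.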

How the results depend on the processing

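Most of the values kept their direction. The 48 log2 fold changes of 8 members in 6 comparisons were recomputed under each alternative. Of the 1344 values, 1229 kept both direction and side of the threshold, 39 lost and 42 gained a call, and 34 changed sign. None of those 34 had been called with all libraries, but after both replicates 3 were left out Ifi205 for genotype under defactinib (-1.19) and Mnda for defactinib in IRF5 KO (1.05) were called with the new sign. Outside these comparisons, LPS in IRF5 KO went from 1.01 to -0.80 in Ifi209, 0.89 to -0.45 in Ifi204, 0.67 to -0.74 in Ifi203 and 0.64 to -0.13 in Ifi207 without IRF5 KO LPS DMSO replicate 3. The cause of the changes below was not tested. Counts of members called went as follows, and the share of all genes called was not computed for these fits. With library size alone they were 0 for LPS with defactinib against unstimulated IRF5 KO, 0 for LPS in IRF5 KO and 2 for the genotype dependence of the LPS response. Without a filter on low counts they were 1 for LPS with defactinib against unstimulated WT, 0 and 0 for both KO comparisons with unstimulated cells and 1 for the genotype dependence of the LPS response. With limma-voom they were 1 for LPS with defactinib in WT, 8 for the genotype dependence of the defactinib effect and 0 for LPS in IRF5 KO. In fits of only the groups compared they were 5 for defactinib in WT, 2 for LPS with defactinib in IRF5 KO and 0 for LPS in IRF5 KO. Without a fold threshold they were 2 for genotype under defactinib and 2 for LPS with defactinib in IRF5 KO. With the threshold inside the test they were 0 for genotype under defactinib, 0 for LPS with defactinib in WT and in IRF5 KO, 0 for LPS in IRF5 KO and 1 for the genotype dependence of the LPS response.

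The replicate numbers showed no clear pairing. With the group means removed, 45 same-numbered pairs had a median r of 0.0046, and 4 were above 0.1. With 3 libraries per group this does not settle whether animals or batches were shared. With a replicate block the count was 7 for the genotype dependence of the defactinib effect and 0 for LPS in IRF5 KO, with the value of Ifi203 for genotype and LPS at 4.09.

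Leaving out each library in turn gave 1 to 3 members for genotype under defactinib, 7 to 8 for defactinib in WT, 0 in IRF5 KO, 1 to 4 for LPS with defactinib in WT, 0 to 1 in IRF5 KO, 3 to 8 for the genotype dependence of the defactinib effect, 8 for LPS in WT, 0 to 3 in IRF5 KO, 0 for genotype before LPS, 6 to 8 after it and 2 to 7 for the genotype dependence of the LPS response, with Ifi203 at 3.22 to 5.04. The count for LPS in IRF5 KO was 0 without IRF5 KO LPS DMSO replicate 3 or IRF5 KO unstimulated replicate 1 or 3. For genotype under defactinib the log2 fold change then ranged from -0.10 to 2.07 in Ifi209, -0.041 to 2.09 in Ifi204, -0.20 to 0.74 in Mndal, -0.74 to 1.28 in Mnda and -1.18 to 2.67 in Ifi205. For defactinib in IRF5 KO it ranged from -1.90 to 0.36 in Ifi209, -0.35 to 0.71 in Ifi207, -1.10 to 0.65 in Ifi204, -0.52 to 1.05 in Mnda, -1.73 to 0.083 in Ifi203 and -2.24 to 0.61 in Ifi205. For LPS with defactinib in WT it ranged from -0.82 to 1.35 in Ifi209, -0.54 to 1.59 in Ifi204 and -0.12 to 1.6 in Ifi203.

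Among alternatives chosen after seeing the data, leaving out IRF5 KO LPS DMSO replicates 1 and 2 gave 2 members for defactinib in IRF5 KO, 0 for LPS in IRF5 KO, 2 for genotype after LPS and 2 for the genotype dependence of the LPS response, with Ifi203 at 2.45 and the dependence of the defactinib effect in Ifi205 at 0.28. Leaving out replicate 3 of both IRF5 KO LPS DMSO and WT LPS defactinib gave 2 for genotype under defactinib, 1 for defactinib in IRF5 KO, 1 and 2 for LPS with defactinib in WT and IRF5 KO, 8 for the genotype dependence of the defactinib effect, 0 for LPS in IRF5 KO and 7 for the genotype dependence of the LPS response, with Ifi203 at 5.04. Genotype under defactinib was then at -0.11 in Ifi209, -0.056 in Ifi204, -0.22 in Mndal, -0.75 in Mnda and -1.19 in Ifi205. Defactinib in IRF5 KO was at 0.36 in Ifi209, 0.71 in Ifi207, 0.65 in Ifi204, 1.05 in Mnda, 0.082 in Ifi203 and 0.61 in Ifi205, and LPS with defactinib in WT at -0.83, -0.55 and -0.13 in Ifi209, Ifi204 and Ifi203. Signs also changed in Ifi204 for LPS with defactinib in IRF5 KO with library size alone (-0.17), and for defactinib in IRF5 KO in Ifi207 and Mnda with limma-voom (0.15 and 0.23) and with the block (0.10 and 0.19). Depth limits Ifi205 most, at 1.49 to 2.58 CPM in unstimulated libraries.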
